A study of Mus musculus with 6 samples.

Results

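Rgs5 and 9 further genes of pericytes and vascular smooth muscle were followed in lungs of endotoxaemic mice given recombinant human soluble thrombomodulin (rhTM) or saline. Rgs5 was chosen by its unadjusted p, the lowest of all genes in an earlier comparison of these same arrays, and Pdgfrb, Notch3, Cspg4, Kcnj8, Abcc9, Higd1b, Cox4i2, Acta2 and Myh11 were added as known mural cell genes. The 10 genes were among 22911 genes with a probe on the array, and all 10 were among the 16370 genes that were bright enough to be tested. Each was represented by its brightest probe. In the fit used here, Rgs5 had the second-lowest unadjusted p, behind Lypd8, which was lower with rhTM by 0.90 on the log2 scale, and ahead of Erbb3, which was lower by 0.70. Among genes that were higher with rhTM, Rgs5 came first. Because this contrast selected Rgs5, its values are given as a description without a test.

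The mice were male C57BL6, 10 weeks old and fasted for 16 h, and LPS, the endotoxin of Gram-negative bacteria, was injected i.p. at 20 mg per kg. The rhTM group received rhTM, a soluble form of the endothelial anticoagulant receptor thrombomodulin, and the control group received saline, in both cases at 3 h and at 24 h after LPS. All 6 mice were thus endotoxaemic, and no lung without LPS was on the arrays. Lungs were taken at 30 h, and RNA of 3 mice per group was hybridised to 1-colour Agilent mouse arrays, 1 array per mouse.

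Mural cells are the contractile and supporting cells that surround the endothelial tube: smooth muscle cells around arteries and pericytes around capillaries. Endothelial cells recruit them with PDGF-B, which binds the receptor encoded by Pdgfrb, and Notch ligands on the endothelium act on Notch3 of the mural cell. RGS5 is a regulator of G protein signalling that speeds the shut-off of Gq- and Gi-coupled receptors such as those for angiotensin and endothelin. Pericytes of lung, brain and heart also carry a potassium channel that opens when ATP falls, with KCNJ8 as its pore and ABCC9 as its sulphonylurea receptor, whereas ACTA2 and MYH11 form the contractile filaments of smooth muscle.

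Some arrays stood apart from the rest. The authors also deposited a table of the processed values of the same arrays, and in it the columns of saline replicate 1 and rhTM replicate 2 were exchanged relative to the scanner output: each matched the other sample's array within 0.1% at more than 99.8% of probes. The labels do not settle which is right. Values below follow the scanner output. The differences of the 10 genes and the medians of the gene lists are also given by the table and without both arrays, whereas other single genes are given by the scanner output unless stated. Saline replicate 1 and rhTM replicate 3 were on slide 2 and were scanned separately from the 4 arrays on slide 1, and the spike-in slope of saline replicate 1 was 0.826, against 1.07 to 1.09 on the others. RhTM replicate 1 was the least like the others, with correlations over genes of 0.979 to 0.988. All 10 genes were well above background on all 6 arrays. Levels are log2 processed signals minus the 75th percentile of the array, so they compare arrays for 1 gene and not genes with each other.

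The start-site regions of Rgs5, Kcnj8 and Abcc9 are shown because Rgs5 had the widest gap between the groups and because Kcnj8 and Abcc9, which encode the parts of 1 channel and lie near each other on chromosome 6, were highest on the same arrays. They are RefSeq sequences of build GRCm38.p6, from 250 bases before to 50 bases after the annotated start, written 5′ to 3′ on the strand of the gene. Capitals mark TGGGAA, the core letters bound by RBPJ, the nuclear partner of Notch.
Rgs5 (chr1:169655251-169655550, plus strand): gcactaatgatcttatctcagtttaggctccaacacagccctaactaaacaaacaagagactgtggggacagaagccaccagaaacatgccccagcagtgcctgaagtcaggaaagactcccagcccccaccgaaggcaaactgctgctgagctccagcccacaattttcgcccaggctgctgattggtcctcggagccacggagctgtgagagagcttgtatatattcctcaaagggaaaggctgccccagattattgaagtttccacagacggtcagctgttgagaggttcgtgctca
Kcnj8 (chr6:142571565-142571864, minus strand): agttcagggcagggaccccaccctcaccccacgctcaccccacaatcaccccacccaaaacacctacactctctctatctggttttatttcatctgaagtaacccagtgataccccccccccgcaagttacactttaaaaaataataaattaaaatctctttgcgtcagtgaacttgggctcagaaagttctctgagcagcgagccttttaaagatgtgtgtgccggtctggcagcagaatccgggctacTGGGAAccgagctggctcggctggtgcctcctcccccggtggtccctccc
Abcc9 (chr6:142702225-142702524, minus strand): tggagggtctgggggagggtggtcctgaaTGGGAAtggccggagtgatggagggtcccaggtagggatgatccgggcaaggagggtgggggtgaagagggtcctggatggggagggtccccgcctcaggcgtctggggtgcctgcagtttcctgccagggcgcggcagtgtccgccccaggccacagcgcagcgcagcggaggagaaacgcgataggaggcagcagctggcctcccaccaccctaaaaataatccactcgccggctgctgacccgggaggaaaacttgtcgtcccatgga
Start-site sequences were at hand for 6 of the 10 genes, namely Rgs5, Notch3, Cspg4, Kcnj8, Abcc9 and Acta2. Searched on both strands, TGGGAA was found in 3 of these 6, in Kcnj8 from base 0 to 5 relative to the start, in Abcc9 from -221 to -216 and in Acta2 from -27 to -22. The same letters occurred in 25.6% of 32851 start-site regions of this length in the table. The E-box CACGTG, which HEY proteins bind, was in 0 of the 6 and in 7.15% of all regions, and an exact CArG box of serum response factor was in 0 of the 6 and in 1.63% of all. Forms of the CArG box that differ by a letter, which the Acta2 promoter is known for, were not counted, so nothing is said here of serum response factor. Among the exact matches counted, none of one motif overlapped another.

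Rgs5 was brighter on every rhTM array than on every saline array. Its processed signals were 104, 106.8 and 128 on the 3 saline arrays and 205, 289 and 338 on the rhTM arrays. On the scaled log2 level these were -2.72, -2.92 and -2.62 with saline against -1.82, -1.54 and -0.99 with rhTM. The means were -2.75 ± 0.15 and -1.45 ± 0.42 (SD, n = 3 each), a difference of 1.30 (SE 0.22), or 2.47-fold. The 3 saline lungs lay within a narrow band, and the rhTM lungs differed more among themselves, with replicate 3 highest. In whole lung, fewer or more mural cells and less or more RNA per cell cannot be told apart.

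The Rgs5 gap depended on which of the exchanged arrays belonged to which group. Within slide 1 the difference of means was 1.09, from 2 arrays against 2, and within slide 2 it was 1.73, from 1 array against 1. Without both arrays in doubt it was 1.36. By the authors' table it was 0.51, the groups overlapped, and leaving out each array in turn gave 0.09 to 0.94. By the scanner output, leaving out each array gave 1.07 to 1.49.

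**Figure D1:**
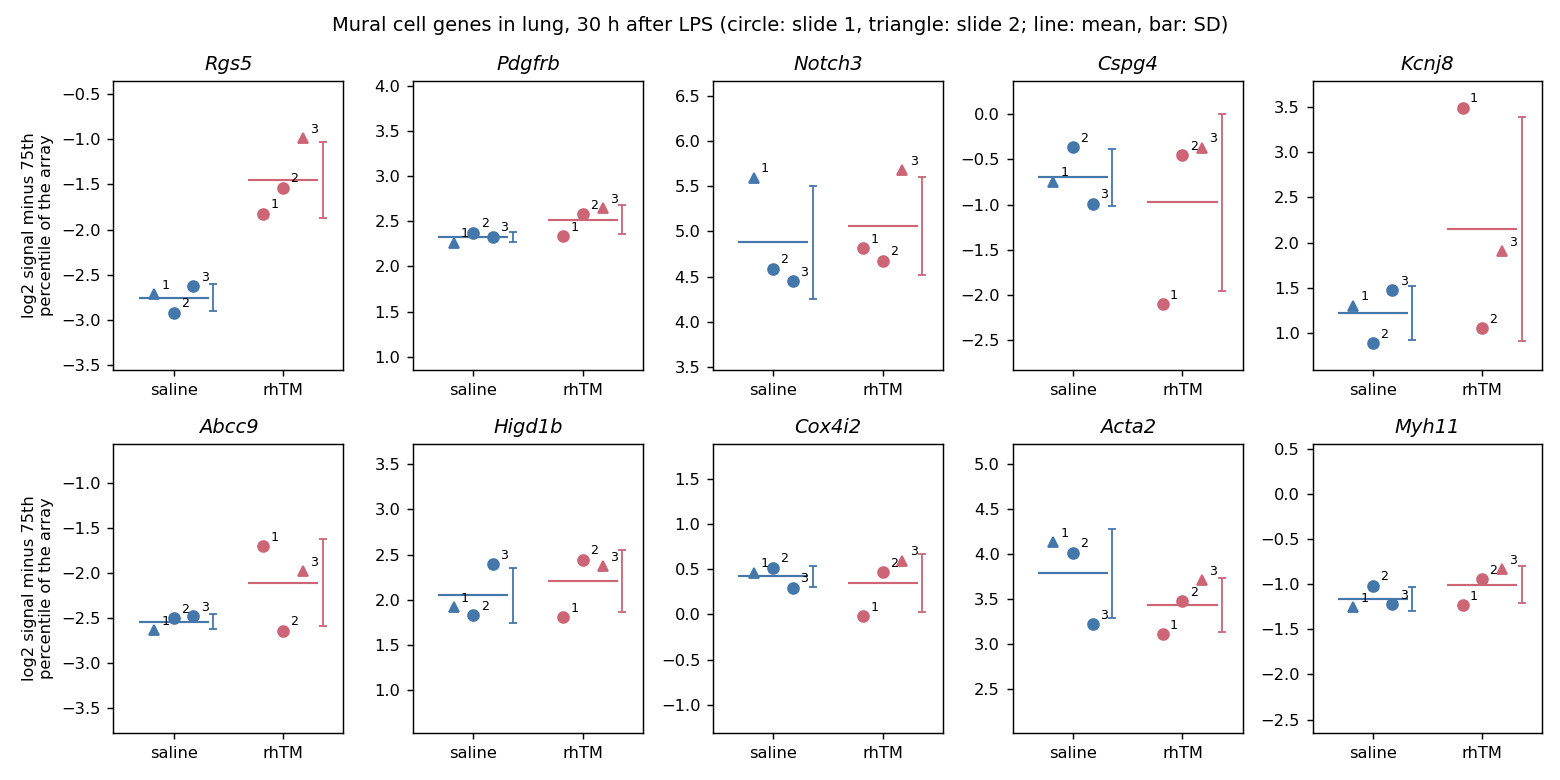
Log2 signal minus the 75th percentile of the array for the 10 mural cell genes, with 1 point per mouse, numbered by replicate, and the mean and SD of each group of 3. Each panel spans the same number of log2 units. Rgs5 is the gene whose groups do not overlap, Kcnj8 and Cspg4 are spread by rhTM replicate 1, and Notch3 is split by slide.

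Beyond Rgs5, none of the 9 other genes passed the test between rhTM and saline: limma with Benjamini-Hochberg adjustment over 16370 genes called 0 genes, so percent called was 0, and the adjusted p was 0.9998 for each of the 9. By an unadjusted p below 0.05, 302 genes (1.84%) passed by limma and 335 by the methods' t-test, which also called 0 after the same adjustment, and none of the 9 was among those of limma. Groups that did not overlap were found for 1 of the 10 genes with rhTM above (Rgs5, which was selected for this) and for 0 with rhTM below, against 2.9% and 2.61% of all genes tested. By the authors' table limma also called 0 genes, with 2328 below 0.05 unadjusted, and 1 of the 10 genes (Notch3) had every rhTM array above and 0 had every rhTM array below, against 8.56% and 13.3% of genes. A permutation test of 3 arrays against 3 cannot give a p below 0.10.

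Neither receptor of the mural cell, Pdgfrb or Notch3, separated the groups by the scanner output. Pdgfrb, the PDGF-B receptor, was at 2.26, 2.37 and 2.33 with saline and 2.33, 2.58 and 2.64 with rhTM, a difference of 0.20 (95% interval -0.11 to 0.51, exact two-sided permutation p = 0.20). Its range over the 6 arrays, 0.38, was the narrowest of the 10 genes. By the authors' table the difference was -0.02, and without both arrays it was 0.14.

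By the scanner output, Notch3 separated by slide and not by treatment. It was at 5.59 and 5.68 on the arrays of slide 2, saline replicate 1 and rhTM replicate 3, and between 4.45 and 4.81 on the 4 arrays of slide 1. By treatment, the means were 4.88 ± 0.62 with saline and 5.06 ± 0.54 with rhTM, a difference of 0.18 (95% interval -0.73 to 1.08, exact permutation p = 0.50). Within slide 1 the difference was 0.23 and within slide 2 it was 0.08. The mean of slide 2 exceeded that of slide 1 by 1.00, a gap that 1.72% of all genes reached, and 12.3% of genes had both arrays of slide 2 above all of slide 1.

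The authors' table places both slide 2 arrays in the rhTM group, so there the same arrays gave a Notch3 difference of 0.78 without overlap (adjusted p = 0.31 by limma, exact permutation p = 0.10, the lowest possible). Of 8 other genes of the Notch pathway, Rbpj and Hes1 also split by slide (named after their values were seen). Heyl, Hey1, Nrarp, Notch1, Notch2 and Notch4 did not. Of all genes tested, 33.2% split by slide in either direction, so the split was not particular to the Notch pathway. Rbpj, the DNA-binding partner of Notch, followed the same split, at 2.49 and 2.65 on slide 2 and 1.47 to 1.75 on slide 1. Hes1, a Notch target, was at 0.19 and 0.34 on slide 2 and -0.76 to -0.03 on slide 1. Heyl, the Notch target typical of mural cells, was above saline on every rhTM array: 0.88, 0.76 and 1.03 against 1.25, 1.11 and 1.80. Its difference was 0.49 (SE 0.20, adjusted p = 0.9998), and 0.33 with overlap by the table.

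Cspg4, the NG2 proteoglycan of the pericyte surface, was low on 1 array. It was at -0.75, -0.36 and -0.99 with saline and at -2.10, -0.45 and -0.37 with rhTM. RhTM replicates 2 and 3 lay at the upper end of the saline range, and replicate 1 lay below every saline array. The difference was -0.28 (95% interval -1.38 to 0.83, exact permutation p = 0.80). Without rhTM replicate 1 it was 0.29. The table gave -0.48, and without both arrays in doubt it was -0.56.

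The 2 parts of the ATP-sensitive potassium channel were highest together. Kcnj8, its pore, was at 1.30, 0.89 and 1.47 with saline and at 3.49, 1.05 and 1.91 with rhTM. Abcc9, its regulatory subunit, was at -2.64, -2.50 and -2.48 with saline and at -1.70, -2.64 and -1.98 with rhTM. For both genes rhTM replicate 1 was highest, rhTM replicate 3 came next and lay above every saline array, and rhTM replicate 2 lay within or below the saline range.

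The differences were 0.93 for Kcnj8 (95% interval -0.43 to 2.29, exact permutation p = 0.30) and 0.43 for Abcc9 (-0.14 to 1.00, exact permutation p = 0.40). Kcnj8 had the widest range over arrays of the 10 genes, 2.61, which exceeded that of 98.9% of genes tested. Much of its mean difference lay in rhTM replicate 1, without which it was 0.26, and 0.23 for Abcc9. Leaving out each array in turn gave 0.26 to 1.48 for Kcnj8 and 0.23 to 0.70 for Abcc9. The highest of each was without rhTM replicate 2. By the authors' table the differences over all arrays were 1.09 and 0.43, and without both arrays in doubt they were 1.52 and 0.65. Abcc8, the related regulatory subunit, was lower on rhTM replicate 1 than on any other array, at -2.26, with a difference of -0.25 (SE 0.23). Kcnj11, the related pore, was not bright enough to be tested.

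The mitochondrial genes of pericytes did not separate the groups. Higd1b, a mitochondrial protein of the hypoxia-induced family, was at 1.92, 1.83 and 2.39 with saline and 1.81, 2.44 and 2.37 with rhTM. Cox4i2, the oxygen-sensitive isoform of a cytochrome c oxidase subunit, was at 0.46, 0.52 and 0.29 with saline and -0.02, 0.47 and 0.60 with rhTM. The differences were 0.16 (95% interval -0.39 to 0.71, exact permutation p = 0.80) and -0.07 (-0.51 to 0.37, exact permutation p = 0.90). By the table they were -0.20 and -0.09, and without both arrays in doubt they were -0.02 and -0.12. The widespread counterparts Higd1a and Cox4i1 had differences of 0.32 (SE 0.21) and 0.17 (SE 0.24), and their groups overlapped.

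The contractile genes Acta2 and Myh11 did not separate the groups either. Acta2, the actin of smooth muscle, was at 4.13, 4.01 and 3.22 with saline and 3.11, 3.47 and 3.71 with rhTM on its brightest probe. Myh11, the smooth muscle myosin heavy chain, was at -1.26, -1.02 and -1.22 with saline and -1.24, -0.95 and -0.84 with rhTM. The differences were -0.36 (95% interval -1.01 to 0.30, exact permutation p = 0.30) and 0.16 (-0.20 to 0.52, exact permutation p = 0.30). By the table they were 0.07 and -0.06, and without both arrays in doubt they were -0.21 and 0.08.

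The 3 probes of Acta2 did not agree in direction. The second probe was at 1.95, 2.26 and 1.97 with saline and 2.09, 2.50 and 2.48 with rhTM, a difference of 0.30. The dimmest was at -3.21, -3.22 and -3.74 with saline and at -2.50, -2.77 and -2.40 with rhTM, so that the groups did not overlap, with a difference of 0.83 (adjusted p = 0.9998 by limma over all probes). Of 36061 probes kept, 2.96% separated in this direction. By the table the dimmest probe gave 0.53 with overlap.

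Actg2, the enteric smooth muscle actin (named after its values were seen), whose protein is nearly identical to that of Acta2, was at 2.82, 2.43 and 1.81 with saline and 1.66, 1.96 and 2.49 with rhTM. Its 6 arrays fell in nearly the order of the brightest Acta2 probe, with saline replicate 1 highest and rhTM replicate 1 lowest in both. Its difference was -0.32, and 0.25 by the table. Whether the Acta2 probes also bind Actg2 was not tested. The 3 probes of Myh11 gave 0.16, 0.13 and 0.44, all with overlap.

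**Figure D2:**
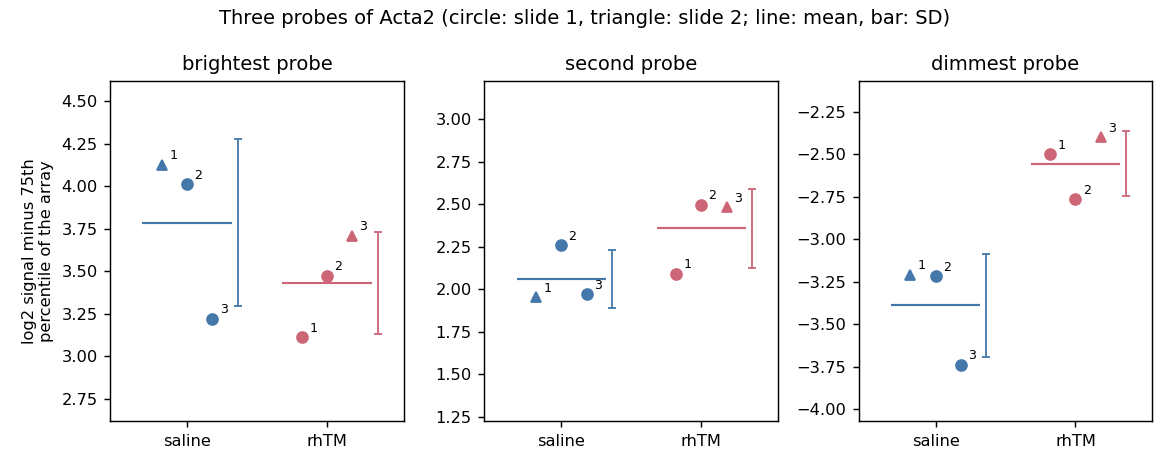
Log2 signal minus the 75th percentile of the array for the 3 Acta2 probes, with 1 point per mouse, the mean and SD of each group of 3, and panels of equal height in log2 units. The brightest probe is lower with rhTM in the mean, by -0.36, the second is higher by 0.30, and the dimmest is higher on every rhTM array, by 0.83 in the mean.

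Seen array by array, the 10 genes did not rise and fall as 1 block. RhTM replicate 3 held the highest value of Rgs5, which was selected for its difference, and of 4 of the 9 other genes (Pdgfrb, Notch3, Cox4i2 and Myh11), and the lowest of 0, against 14.1% and 20.1% of all genes. RhTM replicate 1 held the lowest value of 4 (Cspg4, Higd1b, Cox4i2 and Acta2) and the highest of 2 (Kcnj8 and Abcc9), against 26.0% and 30.1% of all genes. Leaving Rgs5 aside, 8 of the 9 other genes were higher with rhTM in the mean without rhTM replicate 1 (all but Acta2), with a median difference of 0.28, against 6 of 9 and 0.16 with all arrays. Of all genes tested, 48.8% were higher without that array and 50.2% with all arrays, and the medians were -0.004 and 0.001. Without rhTM replicate 3 instead, Notch3 (-0.13), Cspg4 (-0.58), Cox4i2 (-0.20) and Acta2 (-0.49) were lower with rhTM. Pdgfrb, Kcnj8, Abcc9, Higd1b and Myh11 were then higher.

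**Figure D3:**
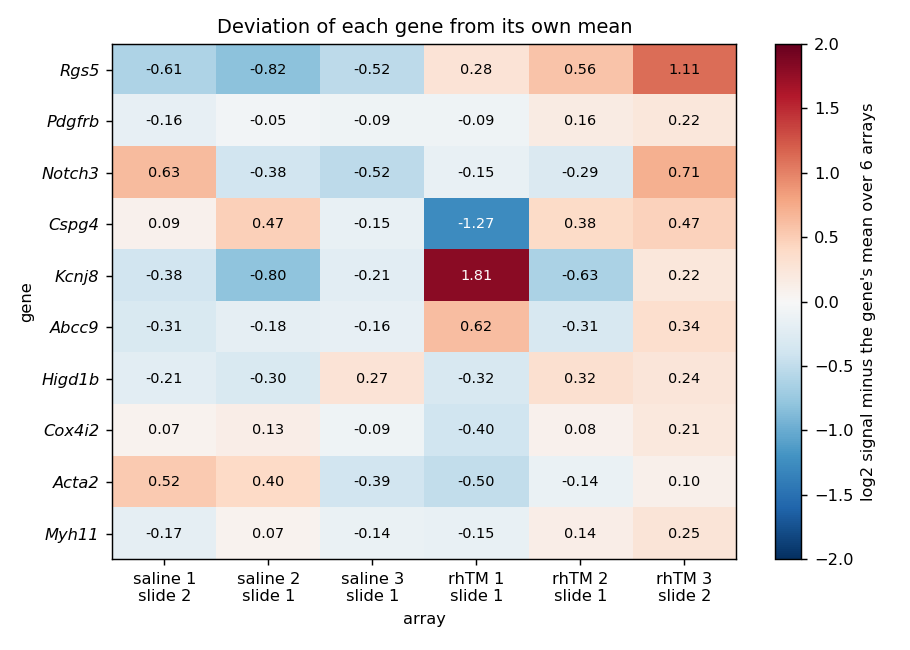
Log2 deviation of each gene (rows) from its own mean over the 6 arrays (columns, with their slide). RhTM replicate 1 is at 1.81 for Kcnj8 and at -1.27 for Cspg4, and slide 2 is at 0.63 and 0.71 for Notch3.

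The likeness of every gene's pattern to that of Rgs5 was measured as the root mean square difference over the 6 arrays between log2 levels centred on each gene's mean, which does not use the groups. By this measure Xlr4a (0.28), Slc44a5 (0.28), Xlr4b (0.32), Gpr139 (0.33) and Igf1 (0.34) were nearest among 16369 genes, whose median was 0.73. Igf1, an insulin-like growth factor, was at -2.46, -2.36 and -2.40 with saline and -2.16, -1.90 and -1.17 with rhTM. Xlr4a and Xlr4b, X-linked genes of 1 family with much shared sequence, had differences of 0.81 and 0.87. Slc44a5, a choline transporter-like gene, was well above background on 1 of the 3 saline arrays and on all 3 rhTM arrays. Gpr139, a receptor coupled to G proteins, was not well above background on the 3 saline arrays and was at least 1.54-fold higher with rhTM. The saline levels of Slc44a5 and Gpr139, and so their places, rest largely on background signal. Since Rgs5 was selected on its difference between the groups, a difference in the same direction follows for the genes nearest to it and is no further result.

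Of the other mural cell genes, Pdgfrb was nearest to Rgs5, at 0.59 and place 405, followed by Abcc9 at 0.59 and place 465, Higd1b at 0.61 and place 669 and Myh11 at 0.61 and place 685. Notch3 and Cox4i2 were at places 4056 and 6564. A gene that stayed level on all 6 arrays would be at 0.70 by this measure, so a place near Notch3 or Cox4i2, at 0.68 and 0.71, shows no shared pattern. Kcnj8, Acta2 and Cspg4 were at 0.89, 0.90 and 0.92, farther than the median gene, at places 14836, 15073 and 15306. The points share 6 arrays, so these are descriptions of these libraries.

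**Figure D4:**
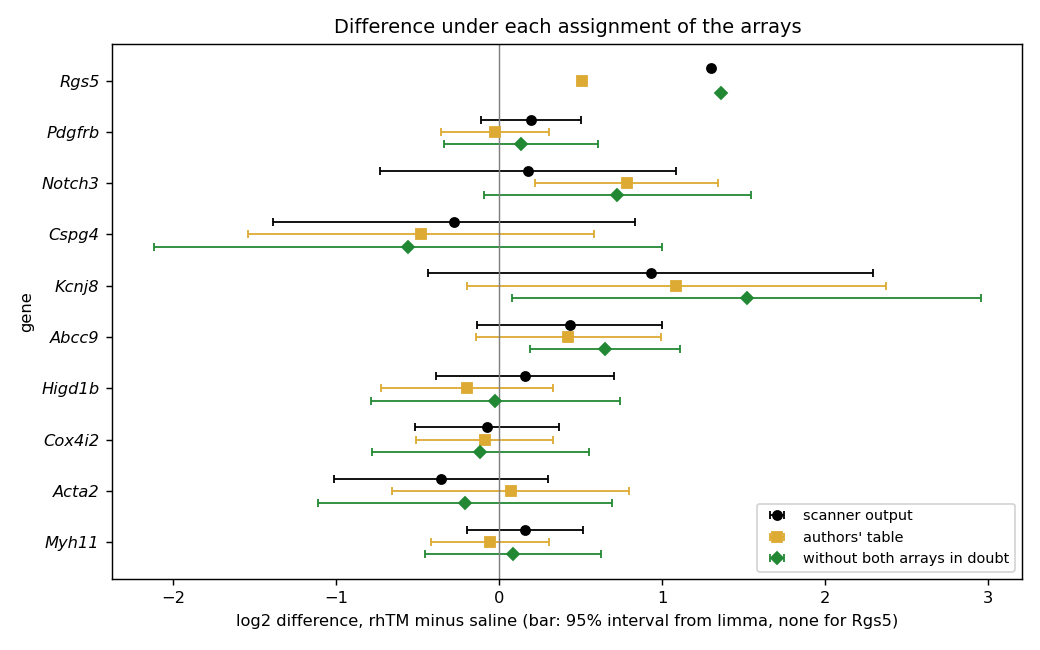
Log2 difference, rhTM minus saline, of the 10 genes by the scanner output, by the authors' table and without both arrays in doubt, with 95% intervals from limma for the 9 tested genes. Rgs5 is at 1.30, 0.51 and 1.36, and Notch3 is at 0.18, 0.78 and 0.73.

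Without both arrays in doubt, rhTM replicates 1 and 3 were set against saline replicates 2 and 3. Then 3 of the 9 genes other than Rgs5 had both rhTM arrays above both saline arrays (Notch3, Kcnj8 and Abcc9) and 0 had both below, against 18.9% and 22.4% of all genes. Rgs5 was above too, which its selection on these arrays makes no result. Limma gave adjusted p of 0.67 for each of Notch3, Kcnj8 and Abcc9 in this reduced comparison.

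The wider set of pericyte genes was lower in the mean with rhTM more often than higher. Of 20 listed genes 19 were tested, 7 were higher and 12 lower with rhTM, and 0 passed the test. The median difference was -0.06, against 0.001 for all genes. By the table's columns, 16 of the 19 were lower with a median of -0.22, and without both arrays in doubt 15 were lower with a median of -0.18, against -0.04 and -0.02 for all genes. The highest were Heyl at 0.49, Rgs4, a near relative of Rgs5, at 0.46 (SE 0.19), and Ebf1, a transcription factor of mural and adipose lineages, at 0.21. The lowest were Steap4, a metalloreductase, at -0.45, Itga8, the alpha-8 integrin, at -0.44, and Vtn, vitronectin, at -0.27. Des, desmin, was below saline on every rhTM array, by -0.23 (named after its values were seen).

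RhTM replicate 1 weighed on this list. It held the lowest value of 13 of the 19 genes and the highest of 0, against 26.0% and 30.1% of all genes. Itga8 was at -0.04 there and between 0.78 and 1.93 on the other arrays, and Angpt1, the pericyte ligand of the endothelial TIE2 receptor, was at 0.21 there and between 1.05 and 1.81 elsewhere (Angpt1 was chosen after its values were seen). Without rhTM replicate 1, 13 of the 19 were higher and the median was 0.14 by the scanner output. By the table's columns without it, the median was -0.02, against -0.06 for all genes. RhTM replicate 2, 1 of the arrays in doubt, held the highest value of 10 of the 19 genes, against 14.8% of all genes. On rhTM replicate 1, 7 of 12 fibroblast markers and 7 of 12 endothelial markers had their lowest value, and 4 and 3 had their highest. The summed linear level of the fibroblast markers was 175 there, against 272 to 313 on the others. Inmt, a bright gene of this sum, was at 5.53 there and between 6.89 and 7.40 on the others. The part of these markers in the result was not tested.

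Smooth muscle contractile genes likewise centred below 0. Of 22 listed, 21 were tested, 7 were higher and 14 lower, 0 passed the test, and the median was -0.11. By the table's columns, 13 of the 21 were lower with a median of -0.09, and without both arrays 16 were lower with a median of -0.12. Cnn1, calponin, was highest at 0.61, followed by Synpo2 at 0.37 and Cald1, caldesmon, at 0.26, which was above saline on every rhTM array. Kcnmb1, the beta subunit of the calcium-activated potassium channel, was lowest at -0.61 and well above background on 2 of the 3 rhTM arrays, followed by Pln, phospholamban, at -0.46 and Casq2, a calcium-binding protein of the sarcoplasmic reticulum, at -0.37. Tpm1, a tropomyosin, was below on every rhTM array, by -0.17 (named after its values were seen). Of these genes, 9 of 21 had their lowest value on rhTM replicate 1, and without it 11 of 21 were higher and the median was 0.01.

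PDGF and Notch signalling genes were evenly divided. Of 18 listed, 17 were tested, 9 were higher and 8 lower, 0 passed, and the median was 0.005. By the table and without both arrays 9 of the 17 were lower, with medians of -0.03 and -0.08. Notch1 was highest at 0.53, followed by Heyl at 0.49 and Nrarp, a feedback inhibitor of Notch, at 0.40. Pdgfb, the endothelial ligand of PDGFRB, was lowest at -0.53, from 4.83, 4.98 and 4.28 with saline to 3.11, 4.86 and 4.53 with rhTM, so that the low value was that of rhTM replicate 1. Pdgfd at -0.41 and Jag2 at -0.22 followed it.

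The other RGS genes lay on both sides of 0. Of 20 listed, 17 were tested, 9 were higher and 8 lower, 0 passed, and the median was 0.02. By the table and without both arrays 10 of the 17 were lower, with medians of -0.14 and -0.08. Rgs1, typical of immune cells, was highest at 0.54, then Rgs4 at 0.46 (95% interval 0.003 to 0.91) and Rgs2, a Gq-selective regulator, at 0.35 (0.01 to 0.69). Rgs4 and Rgs2 were the 2 genes of the 17 with an unadjusted p below 0.05 by limma, against 1.84% of all genes, and both had an adjusted p of 0.9998. Rgs22 was lowest at -0.44, then Rgs20 at -0.34 and Rgs3 at -0.27. By the scanner output no gene of this list separated the groups, against 2.9% above and 2.61% below of all genes, and by the table's columns 4 of the 17 had every rhTM array below, against 13.3%. Without rhTM replicate 1, 5 of 17 were higher, with Rgs4 at 0.58 and Rgs2 at 0.32.

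Receptors that drive contraction through G proteins, the kind of receptor on which RGS proteins act, were also close to 0. Of 17 listed, 16 were tested, 9 were higher and 7 lower, 0 passed, and the median was 0.08. By the table it was 0.07, and without both arrays it was 0.09. Ednrb, an endothelin receptor, was highest at 0.40, with -1.36, -1.39 and -1.14 with saline and -0.61, -1.13 and -0.96 with rhTM. Its groups did not overlap, and by the table the difference was 0.24 with overlap. Htr2a, a serotonin receptor, was lowest at -0.40 and was well above background on 2 of the 3 rhTM arrays.

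By the scanner output, ion channels of mural cells had the highest median of the wider mural lists, which did not hold by the table. Of 12 listed, 9 were tested, 5 were higher and 4 lower, 0 passed, and the median was 0.17. By the table it was -0.01, and without both arrays it was 0.12. In the scanner output 4 of the 9 had every rhTM array above the saline arrays and 0 had every rhTM array below, against 2.9% and 2.61% of all genes, and the summed linear level was 14.6 to 15.7 with saline and 17.3 to 19.0 with rhTM. The lowest of these sums was that of saline replicate 1 and the 17.3 that of rhTM replicate 2, the arrays in doubt, and with both exchanged the groups overlap. Kcnj2, an inward rectifier, was at 1.59, 1.67 and 1.75 with saline and 2.48, 1.76 and 2.28 with rhTM, a difference of 0.51 (SE 0.20, adjusted p = 0.9998 by limma). Cacna1c, the L-type calcium channel, was at 0.37 and Ano1, a calcium-activated chloride channel, at 0.17, and for these genes too the groups did not overlap (all 3 were named after their values were seen). By the authors' table the differences of Kcnj2, Cacna1c and Ano1 were 0.38, 0.15 and -0.01, and 0 of the 9 genes separated upward, against 8.56% of all genes. Kcnq5, a voltage-gated potassium channel, was lowest at -0.59 and was well above background on 2 of the 3 rhTM arrays.

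Among relatives of Cox4i2 and Higd1b, with 12 listed and 11 tested, 6 were higher and 5 lower, 0 passed and the median was 0.11. By the table it was -0.11, and without both arrays it was 0.03. Hif1a, the oxygen-regulated transcription factor, was highest at 0.53, with the saline arrays between 3.69 and 3.82 and all rhTM arrays above them, up to 4.49. By the table the difference was 0.34 with overlap. Cox6a2, the muscle isoform of a cytochrome c oxidase subunit, was lowest at -0.16.

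**Figure D5:**
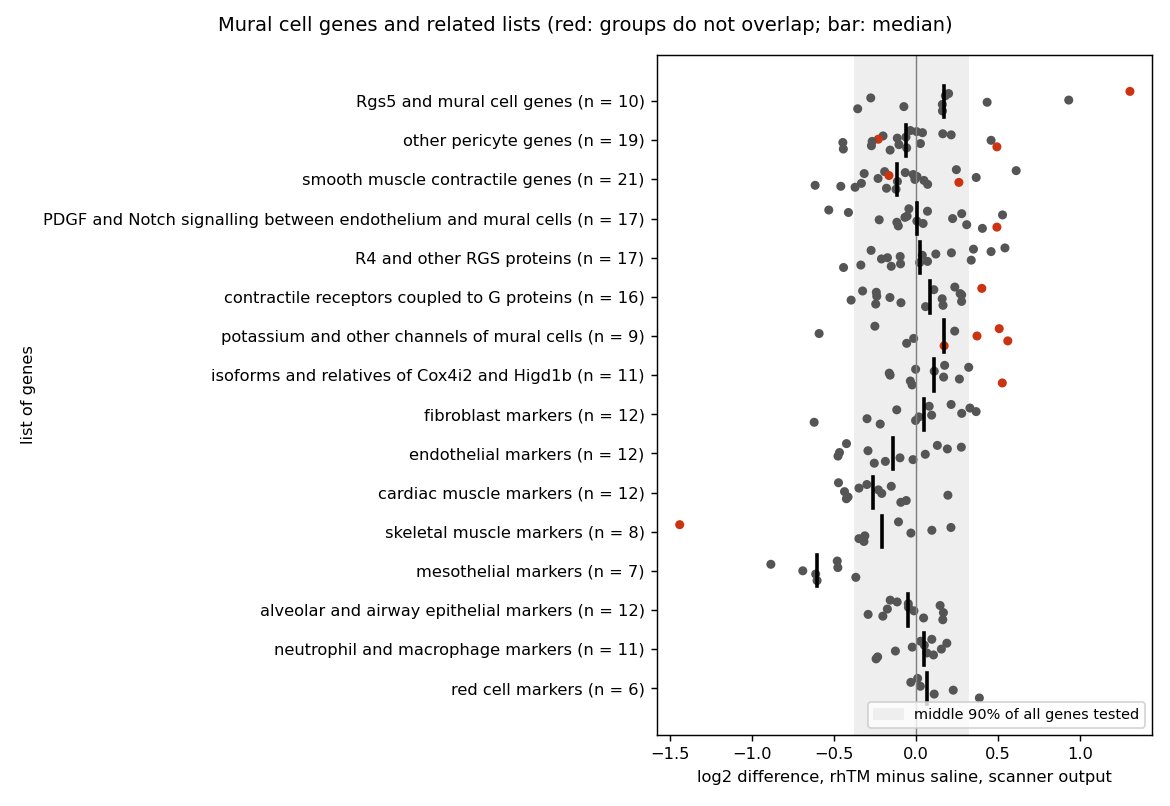
Log2 difference, rhTM minus saline, by the scanner output for each tested gene (points) of Rgs5 and the mural cell genes and of the 15 other lists (rows, with the number of genes), with list medians as bars and the middle 90% of all genes shaded. Red points are genes whose groups do not overlap. Rgs5 is the rightmost point at 1.30, and the mesothelial markers lie together below 0, with a median of -0.60.

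Markers of other cells were read beside these genes. All 7 mesothelial markers were lower with rhTM in the mean, with a median of -0.60, from Upk3b at -0.88 to Krt19 at -0.37. Their summed linear level was 47.8 to 75.6 with saline and 35.6 to 53.3 with rhTM, so the sums overlapped, and saline replicate 2 held the highest value of all 7. By the scanner output 0 of the 7 had every rhTM array below saline, against 2.61% of all genes. All 7 were lower in the mean by the table and without both arrays too, with medians of -0.68 and -0.86. Every rhTM array lay below saline for 6 of the 7 by the table and for 7 of the 7 without both arrays, against 13.3% and 22.4% of all genes, and limma called 0 of them in either. Their part in the Rgs5 values was not tested.

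Cardiac muscle markers, which can enter lung samples with the pulmonary vein wall, were lower in 11 of 12 with a median of -0.26, between Myh6 at -0.47 and Nppa at 0.19. By the exchanged columns 8 of the 12 were higher, with a median of 0.16, and without both arrays 5 were higher, with a median of -0.07. Of 12 skeletal muscle markers 8 were tested and 2 were higher, from Ckm at -1.44 to Tnnt3 at 0.21, with a median of -0.21. With the columns of the table, 5 of these 8 were above 0, the median was 0.16 and Ckm was at 0.79, and without both arrays 4 of the 8 were higher, with a median of -0.01. The summed linear level of cardiac markers was 35.8 to 74.4 with saline and 43.1 to 51.6 with rhTM. Their part in the Acta2 values was not tested.

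Several of the remaining lists changed direction with the assignment of the arrays. Fibroblast markers were higher in 7 of 12 with a median of 0.05, from Inmt at -0.62 to Lum at 0.37, and the median was -0.07 by the table and -0.01 without both arrays. Endothelial markers were higher in 4 of 12 with a median of -0.14, from Ramp2 at -0.48 to Cldn5 at 0.28. By the table's columns, 9 of these 12 were lower with a median of -0.33, 5 of them on every rhTM array, against 13.3% of all genes, and without both arrays the median was -0.34 and 7 were below on every rhTM array, against 22.4%. Epithelial markers were higher in 4 of 12 with a median of -0.05, from Pdpn at -0.29 to Aqp5 at 0.17. By the table and without both arrays 8 of these 12 were higher, with medians of 0.14 and 0.06.
Neutrophil and macrophage markers were higher in 7 of 11 tested with a median of 0.05, from Itgax at -0.24 to Retnlg at 0.19. By the table's columns, 8 of the 11 were lower with a median of -0.10, and without both arrays the median was -0.02. Red cell markers were higher in 5 of 6 tested with a median of 0.07, from Hba-a2 at -0.03 to Slc4a1 at 0.39, and the median was 0.27 by the table and 0.22 without both arrays. For 3 of the 6 every rhTM array was above saline in either, against 8.56% and 18.9% of all genes. As a check of the tissue, Sftpc, a surfactant gene of the alveolar epithelium, was bright on every array, between 8.93 and 9.70.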

How the data were processed

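RNA from the lungs of 3 saline and 3 rhTM mice was read on 6 arrays. The authors deposited scanner output (Feature Extraction 10.7.3.1 per the file headers; 9.1 in the submitters' processing notes), whose processed signal is a background-corrected linear intensity, not scaled between arrays, and a table of intensity values of the same arrays. Here control spots and 398 of 56605 probes with outlier flags were left out, spots of a probe were averaged, log2 was taken and the 75th percentile of each array subtracted. Accessions were matched without versions to a RefSeq table (GRCm38.p6) at 32994 probes. Probes well above background on all 3 arrays of a group were kept, and the brightest stood for its gene. Where all arrays of a group were at background, a fold is a bound, set against the lowest level well above background on each array.

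Groups were compared with limma 3.58.1 (lmFit, eBayes) in R 4.3.3, with Benjamini-Hochberg adjustment over all genes at 0.05, and single genes by exact permutation over samples. The fits were tested on simulated data. Named were the 10 genes, the 5 most like Rgs5, the extremes of each list (up to 3 per direction in the mural lists) and partners or isoforms (Kcnj11, Abcc8, Cox4i1, Higd1a, Rgs4, Pdgfb). Genes named beyond these are marked in the text, save the neighbours of Rgs5 by p (Lypd8, Erbb3) and Sftpc. A gene of the channel list is not reported here. Genes and lists were chosen with earlier results of these data known. Alternatives were normexp with offset 50, quantile scaling, other percentiles and filters, probe means, slide and replicate blocks, the authors' table, each array left out and the methods' t-test. RNA kits differ between the methods (simplyRNA) and the labels (RNeasy), and the control is PBS in the general methods. The number of arrays limits precision.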

Additional observations from a re-analysis of the deposited data

How the results depend on the processing

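By the scanner output, no setting called any gene, and limma by the slide as a block gave adjusted p of 0.92 to 0.94 for the 9 tested genes. Of 216 alternatives over these 9 genes, 183 kept direction and side of the threshold, 31 reversed and 2 passed it. The Rgs5 difference was 0.94 after normexp, 0.51 by the authors' table and 0.54 by that table with a slide block. Leaving out each array gave 1.07 to 1.49, and 0.086 to 0.94 by the table.

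By the table, differences reversed for Pdgfrb (-0.023), Higd1b (-0.20), Acta2 (0.072) and Myh11 (-0.056), and with the slide as a block for Pdgfrb (-0.094), Higd1b (-0.41) and Myh11 (-0.17). Without both arrays in doubt Higd1b was -0.022, and the mean over the probes of Acta2 gave 0.26. Leaving out each array of the table gave -0.13 to 0.053 for Pdgfrb, -0.39 to -0.087 for Higd1b, -0.17 to 0.34 for Acta2, -0.19 to 0.018 for Myh11, -0.83 to 0.032 for Cspg4, -0.21 to 0.090 for Cox4i2 and 0.63 to 1.05 for Notch3. In the scanner output it gave -0.13 to 0.54 for Notch3 (-0.035 without saline replicate 3 and -0.13 without rhTM replicate 3), -0.58 to 0.29 for Cspg4 and -0.20 to 0.11 for Cox4i2 (0.29 and 0.11 without rhTM replicate 1), 0.14 to 0.29 for Pdgfrb, 0.042 to 0.36 for Higd1b, -0.64 to -0.19 for Acta2 and 0.076 to 0.28 for Myh11. Notch3 passed by the table without rhTM replicate 1 (1.05, limma adjusted p = 0.00998), where 2 slide 2 arrays alone stand for rhTM, and Kcnj8 by the table with a slide block (2.35, limma adjusted p = 0.039), where rhTM replicate 1 alone is set against saline on slide 1. Genes called were then 425 higher and 170 lower, and 196 higher and 246 lower. The cause was not tested.

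Of the 10 genes, 4, with Rgs5 among them, had every rhTM array above every saline array without both arrays in doubt, against 18.9% of all genes. With 1 array left out the number was 1 to 3, in the scanner output as in the table, and the number below was 0 to 1. The share of all genes with 1 array left out is not given here. Groups separate more easily with fewer arrays, so nothing is read from these counts. Replicate numbers did not pair the samples, since same-numbered deviations correlated at -0.30, 0.44 and -0.45, and not every sample correlated best with its own number. With the replicate block limma called 0 genes, with 378 below 0.05 unadjusted, and Rgs5 was 1.30.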
